A study of Homo sapiens with 8 samples.

Results

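The comparison of UNC0642 with vehicle in Kyse510 cells rests on 1 library a side and holds every gene with an FPKM of at least 1 in either library, which was 13244 of the 31582 genes listed. Kyse510 is an established human esophageal squamous carcinoma line. UNC0642 is a small molecule that competes with the histone substrate of G9a and of its partner GLP, the methyltransferases encoded by EHMT2 and EHMT1. One culture received 7 µM UNC0642 and the other the vehicle DMSO, and RNA was taken after 2 days. The treatment label of the vehicle sample reads untreated, whereas its title and the series description name the vehicle. Values are also given side by side for a library with 7 µM SP2509, an LSD1 inhibitor, and for one with both inhibitors, whose doses are not stated apart from the single ones. These 2 libraries share the vehicle library with UNC0642, so their agreement with it is no separate evidence. A separate table holds Kyse510 cells with an inducible shG9a hairpin that were kept stable by puromycin selection for 14 days. They were then given no doxycycline or doxycycline for 2 days. A line with an shLSD1 hairpin was handled likewise. No condition has a replicate, so no value below has an SD, and a condition cannot be told apart from its single library.

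G9a places mono- and dimethyl marks on lysine 9 of histone H3, marks that go with repressed chromatin. The groups of genes described below belong mostly to stress pathways. Misfolded protein in the endoplasmic reticulum (ER) is sensed by IRE1, PERK and ATF6, which raise chaperones, degradation factors and, through PERK and the translation of ATF4, genes for amino acid supply. The cytosol has its own heat shock chaperones, and low oxygen is read by HIF, which raises glycolytic enzymes. Squamous epithelia carry basal keratins in dividing cells and cornified envelope proteins in differentiating ones, and growth factor signaling through ERK raises AP-1 transcription factors together with its own feedback inhibitors.

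Reads were estimated from the deposited FPKM values (fragments scaled by gene length and library total), which gave 15662035 reads with vehicle and 17889466 with UNC0642. A gene is called higher or lower here when the fold of (FPKM + 1) was at least 1.3, and when its reads differed at p below 0.05 by an exact binomial test, two-sided, given the library totals. This test covers counting error only and compares 2 libraries, not 2 conditions. Rose and fell are used below for genes called in this way. Changes are given on the log2 scale of (FPKM + 1), which understates the change of low genes. The median change of all genes tested was -0.01, with quartiles of -0.26 and 0.26.

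Short promoter elements of these pathways are shown first, because they mark which of the genes that moved carry a known stress element next to their start. The 250 bases before the start of each gene were read from RefSeq promoters (GRCh38.p14), of which 27305 genes have one, and both strands were searched. The ER stress element (ERSE) was spelled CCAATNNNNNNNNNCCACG, its second form (ERSE-II) ATTGGNCCACG, the C/EBP-ATF element of ATF4 targets (CARE) TGATGNAA, the hypoxia element (HRE) TACGTG, the AP-1 site TGANTCA and the heat shock element (HSE) GAANNTTCNNGAA. ERSE and ERSE-II share the letters CCACG and, read on the other strand, CCAAT. The HRE shares CACG with them on its other strand, and CARE and AP-1 both begin with TGA. ERSE was found in 22 of these promoters (0.0806%), ERSE-II in 14 (0.0513%), CARE in 870 (3.19%), HRE in 777 (2.85%), AP-1 in 1801 (6.60%) and HSE in 120 (0.439%). Each line gives the strand of the gene from 5′ to 3′, with the element, which may read as its reverse complement, in capitals and 5 bases on either side. A match is a description of the letters and no evidence of binding.
HSPA5 ERSE, chr9:125241386-125241414, minus strand: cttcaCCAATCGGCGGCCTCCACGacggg
HSP90B1 ERSE, chr12:103930316-103930344, plus strand: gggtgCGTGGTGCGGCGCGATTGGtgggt
CALR ERSE, chr19:12938379-12938407, plus strand: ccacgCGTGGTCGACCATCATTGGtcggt
CRELD2 ERSE, chr22:49918549-49918577, plus strand: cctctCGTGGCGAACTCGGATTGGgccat
XBP1 ERSE, chr22:28800598-28800626, minus strand: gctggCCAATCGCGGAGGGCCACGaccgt
HERPUD1 ERSE-II, chr16:56932020-56932040, plus strand: cgccgATTGGGCCACGttggg
CHAC1 CARE, chr15:40953257-40953274, plus strand: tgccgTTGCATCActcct
FGF21 CARE, chr19:48755465-48755482, plus strand: caggaTTGCATCAgggag
ASNS CARE, chr7:97872464-97872481, minus strand: aggcaTGATGAAActtcc
CA9 HRE, chr9:35673905-35673920, plus strand: caatgCACGTAcagcc
P4HA1 HRE, chr10:73096942-73096957, minus strand: gagctCACGTAgcgag
IVL AP-1, chr1:152908418-152908434, plus strand: tgtggTGAGTCAggaag
SPRR1A AP-1, chr1:152983968-152983984, plus strand: tagtgTGAGTCAtgtgt
HSPA8 HSE, chr11:123062174-123062196, minus strand: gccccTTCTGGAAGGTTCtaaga

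The target itself was measured first. EHMT2 had 11.1 FPKM with vehicle and 10.3 with UNC0642, and EHMT1 had 3.35 and 2.93 FPKM, and neither was called. An inhibitor of the enzyme need not move its mRNA, so these levels do not check the labels. EHMT2 was 10.2 FPKM with SP2509 and 5.38 with both inhibitors, and in the shG9a line it fell from 7.85 to 4.76 FPKM with doxycycline. Of 23 tested genes for H3K9 methylation and its readers and erasers, 3 rose and 4 fell, against 15.8% and 14% of all genes. UHRF1, which reads H3K9 methylation and hemimethylated DNA, rose from 8.38 to 16.1 FPKM. Among the demethylases, KDM3A rose from 6.94 to 10.3 FPKM and KDM7A from 0.447 to 1.39, while KDM4A fell from 15.6 to 8.21 FPKM and PHF8 from 6.96 to 4.19.

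The squamous identity of the line was visible in both libraries. KRT5, a basal keratin, had 427 FPKM with vehicle and 303 with UNC0642, and TP63 had 79.1 and 62.6. EPCAM, an epithelial marker on the same list, had 139 and 183 FPKM. SOX2 and DSG3, also listed, fell from 18.3 to 4.94 and from 28.6 to 11.4 FPKM. KRT14 and KRT6A, also on the squamous list, were at only 1.93 and 0.676 FPKM with vehicle. All 12 squamous markers passed the filter, KRT6A only through UNC0642, and 5 rose and 3 fell, against 15.8% and 14% of all genes. Of 15 listed markers of other cell types, such as leukocytes, endothelium and fibroblasts, 13 had values and 2 reached 1 FPKM. These were COL1A1 with 2.96 and 2.92 FPKM and CDH5 with 3.28 and 4.19 FPKM. In a bulk library, fewer cells of a type and less RNA per cell cannot be told apart.

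With UNC0642, 2089 genes rose (15.8% of those tested) and 1857 fell (14%). At a fold of at least 2, 511 rose (3.86%) and 294 fell (2.22%), and at a fold of at least 8, 15 rose and 3 fell. Low genes contributed to these counts, since 899 genes reached 1 FPKM only with UNC0642 and 870 only with vehicle. Among the 11475 genes that reached 1 FPKM in both, 1614 rose (14.1%) and 1483 fell (12.9%). The share that rose was 16.4% and the share that fell 13.4% among 10725 protein-coding genes. Genes transcribed from the mitochondrial genome took 7.85% of the reads with vehicle and 6.16% with UNC0642. They made up 9 of the 10 protein-coding genes with the highest FPKM, the other being FTL, ferritin light chain, with 6826 and 6524 FPKM.

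**Figure D1:**
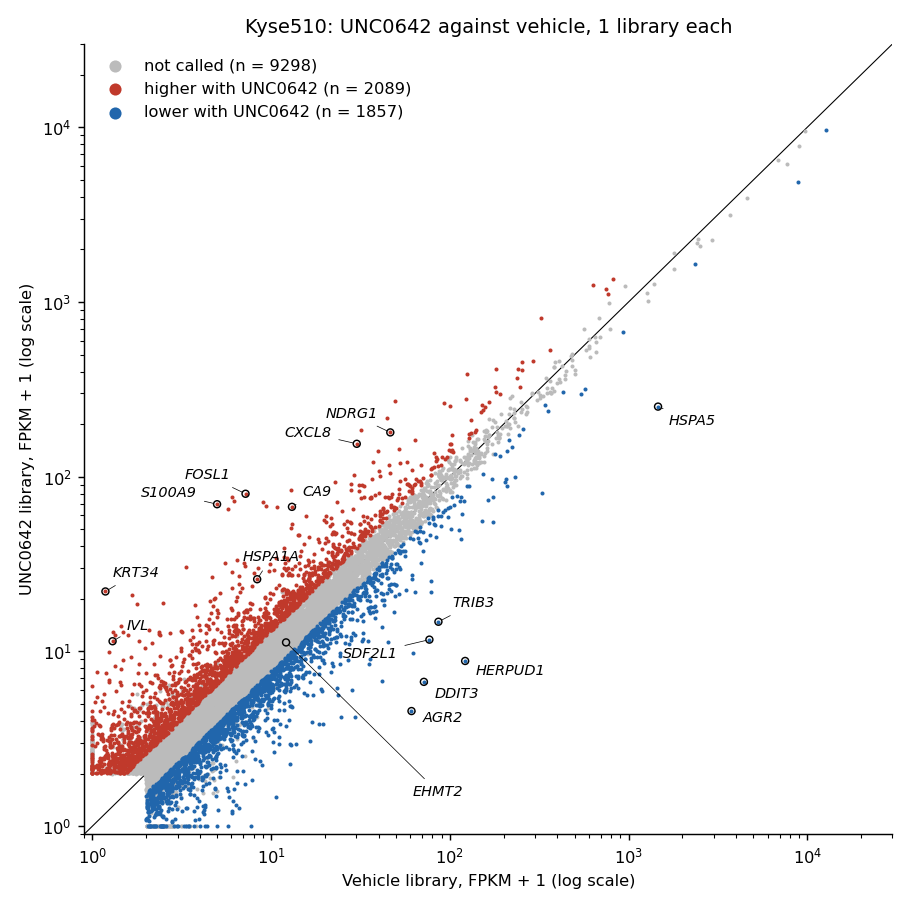
FPKM + 1 of each of the 13244 genes tested with vehicle (x axis) and UNC0642 (y axis), both on log scales, 1 library each, with the 2089 genes that rose in red, the 1857 that fell in blue and the line of equal values. HSPA5 lies apart from the other abundant genes at 1462 FPKM with vehicle and 251 with UNC0642. Some of the largest increases, such as KRT34 and IVL, started below 1 FPKM, and others, such as FOSL1 and S100A9, above it.

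The largest decreases were genes of the ER stress response. HERPUD1, an ER membrane factor of protein degradation (chromosome 16, 56932048 to 56944863), had 121 FPKM with vehicle and 7.82 with UNC0642, from 9756 and 721 reads. The ratio of its reads per library total was 0.0647, with an exact 95% counting interval of 0.0599 to 0.0698. AGR2, an ER disulfide isomerase of mucosal cells, had 60.0 and 3.56 FPKM (2675 and 181 reads). DDIT3, which encodes the stress transcription factor CHOP (chromosome 12, 57516588 to 57520517), had 70.6 and 5.70 FPKM (1400 and 129 reads, ratio 0.0807, interval 0.0668 to 0.0967). On the scale of (FPKM + 1), these 3 were the only genes that fell by at least 8 times. By the ratio of reads, the less abundant KRT4 (0.0436), ADH1C (0.0483) and FGF21 (0.0486) fell further. HSPA5, the Hsp70 chaperone of the ER lumen (BiP), was far more abundant, with 1462 FPKM and 89499 reads against 251 FPKM and 17546 reads, a ratio of 0.172 (interval 0.169 to 0.174).

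Of the 15 largest decreases among protein-coding genes with at least 5 FPKM, 9 belonged to the lists of ER stress and ATF4 genes. Beside HERPUD1, DDIT3 and HSPA5 these were FGF21, SDF2L1, PCK2, TRIB3, DNAJB9 and CHAC1. AGR2 was described above, and 5 genes remained. ID4, an inhibitor of basic helix-loop-helix factors, fell from 28.5 to 3.22 FPKM, and TSC22D3, a glucocorticoid-induced gene, from 11.8 to 1.25. WNT10A, a Wnt ligand of epithelial progenitors, fell from 18.5 to 2.85 FPKM, and ADH1C, an alcohol dehydrogenase, from 5.60 to 0.270. KRT4, a keratin of the differentiating esophagus, fell from 5.03 to 0.219 FPKM with 261 and 13 reads.

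**Figure D2:**
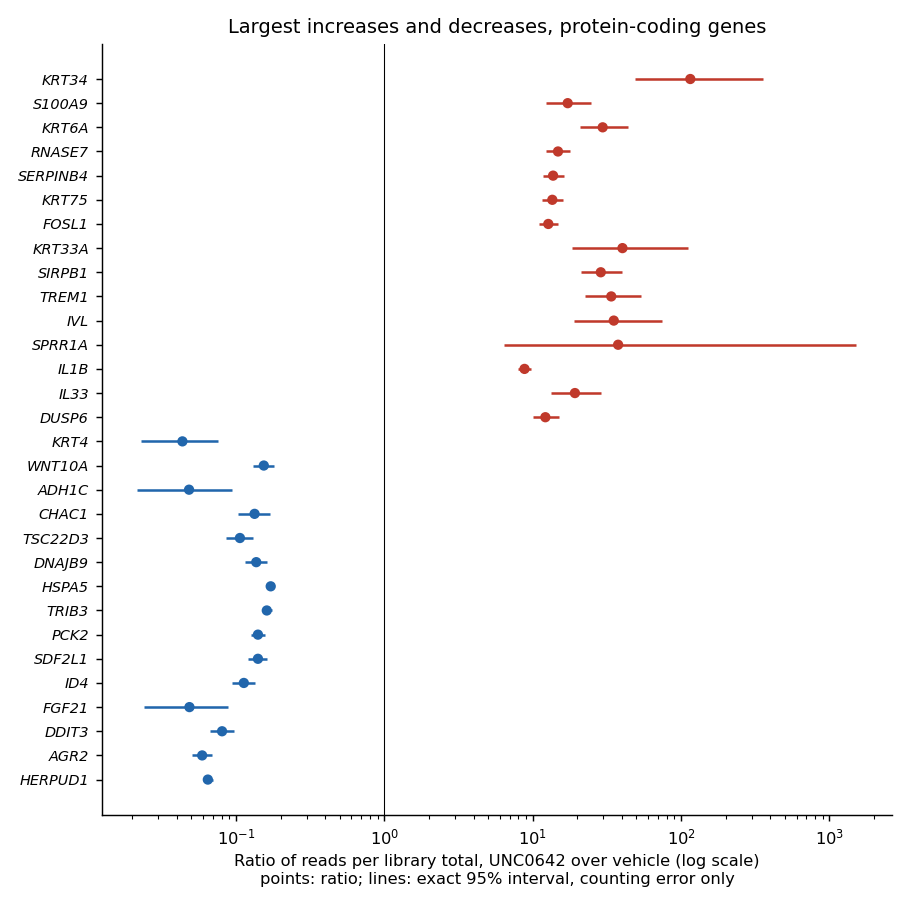
Ratio of reads per library total, UNC0642 over vehicle, on a log x axis for the 15 largest increases (red) and 15 largest decreases (blue) of protein-coding genes, with exact 95% intervals for counting error only. All 30 intervals lie away from 1, and the widest belongs to SPRR1A, which had 1 read with vehicle and 43 with UNC0642.

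Sensors and transcription factors of the unfolded protein response fell as a group. Of 14 tested members, 10 fell and 0 rose, against 14% of all genes that fell, and their median change was -0.54. EIF2AK3, the gene of the sensor PERK, had 8.21 FPKM with vehicle and 3.04 with UNC0642, ERN1, the gene of IRE1, had 4.84 and 1.78, and ATF6 had 18.6 and 12.6. XBP1, whose spliced form drives chaperone genes, fell from 77.2 to 24.3 FPKM, and DNAJC3, the co-chaperone that restrains PERK, from 34.6 to 8.03. ATF4 itself fell by only 0.45, from 255 to 186 FPKM. PPP1R15A, the phosphatase subunit that ends the translational block, had 77.1 and 59.7 FPKM and was not called, like CEBPB with 47.2 and 60.4.

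ER lumen chaperones did not all move. Of 28 tested, 13 fell and 1 rose, with a median change of -0.29, and 9 fell by at least 2 times against 2.22% of all genes. Hsp70-type chaperones and their cofactors made up much of this. Besides HSPA5, HYOU1 fell from 56.1 to 21.4 FPKM, SDF2L1 from 75.9 to 10.7, DNAJB9 from 23.6 to 3.23, and DNAJB11 from 21.9 to 10.3. HSP90B1, the ER Hsp90, fell from 567 to 316 FPKM and PDIA4, a disulfide isomerase, from 229 to 98.1. Among the lectin chaperones CALR fell from 353 to 235 FPKM, while CANX had 319.8 and 293 and was not called. TXNDC11, a thioredoxin-domain protein, fell from 16.1 to 8.53 FPKM, whereas the isomerases PDIA3, with 142 and 134 FPKM, and P4HB, with 64.0 and 67.2, were not called. ERO1A, the ER oxidase that is also raised by low oxygen, went the other way and rose by 1.43, to 107 FPKM.

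ER-associated degradation showed the same mixture. Of 26 tested members 9 fell and 3 rose, against 14% and 15.8% of all genes, and the median change was -0.08. Parts of the membrane complex that carries substrates out of the ER fell, SEL1L from 40.7 to 12.8 FPKM, SYVN1, its ubiquitin ligase, from 33.8 to 10.5, and DERL2 from 13.1 to 5.16, while DERL1 had 25.2 and 24.1 FPKM and was not called. The cytosolic ATPase VCP had 65.0 and 68.2 FPKM and was not called, and its cofactors UFD1 and NPLOC4 rose, from 4.19 to 5.77 and from 12.1 to 16.6 FPKM. In the translocation and COPII list, 6 of 36 members fell and 3 rose, close to the share among all genes, led by SEC24D, a cargo adaptor, which fell from 8.54 to 3.47 FPKM.

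Most tested genes with the ERSE printed above fell. Of the 22 genes with an ERSE, 13 were tested, 10 fell (76.9%, against 14% of all genes) and 0 rose. The 10 were HSPA5, HSP90B1, CALR, CRELD2, ERO1B and XBP1 from the lists, together with SERP1, FICD, ALG12 and TRIM5. ERSE-II was less uniform, since 4 of 11 tested genes fell and 2 rose, and HERPUD1, HYOU1 and SDF2L1 were among those that fell. These counts are a description, because the elements were chosen with the behavior of the ER genes known.

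Targets of ATF4 fell more uniformly than any other of the 26 lists, with a median of -1.06. Of 49 tested members 40 fell, 28 of them by at least 2 times, and 1 rose, against 14% of all genes that fell and 15.8% that rose. Of these 49, 6 passed the filter only through vehicle, FGF21 among them, and among the 43 at or above 1 FPKM in both libraries 34 fell and 1 rose. FGF21, a secreted stress hormone, had 9.64 FPKM with vehicle and 0.469 with UNC0642 (198 and 11 reads). TRIB3, a pseudokinase induced by ATF4 and CHOP, had 85.4 and 13.8 FPKM, and CHAC1, which degrades glutathione, 15.5 and 2.06. SESN2, an inhibitor of mTORC1, had 27.5 and 4.99 FPKM. All 4 fell by at least 4 times.

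Genes of amino acid supply made up most of that list. In serine synthesis, PSAT1 fell from 327 to 80.1 FPKM, PSPH from 18.0 to 5.10 and PHGDH from 31.6 to 11.8, and the mitochondrial enzymes SHMT2 and MTHFD2 fell from 69.5 to 36.7 and from 67.7 to 31.2. PCK2, mitochondrial phosphoenolpyruvate carboxykinase, fell from 40.8 to 5.74 FPKM. The 10 aminoacyl-tRNA synthetases of the list all fell, from AARS at 173 and 54.3 FPKM to NARS at 51.0 and 36.2. Of the amino acid transporters, SLC3A2 fell from 173 to 75.3 FPKM, SLC7A5 from 539 to 296, and SLC7A11, the cystine carrier, from 48.9 to 23.0. SLC38A2 had 140.2 and 129 FPKM and was not called. ATF3, a stress factor of several pathways, had 17.4 and 18.1 FPKM, and GDF15, a secreted stress cytokine, rose from 46.1 to 75.2. Of the 49 listed, 39 matched a promoter and 6 of these (15.4%) held a CARE, whatever their change, against 3.19% of all promoters. Over all promoters with a CARE, 29 of 119 tested genes fell (24.4%) and 17 rose (14.3%), against 14% and 15.8% of all genes.

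**Figure D3:**
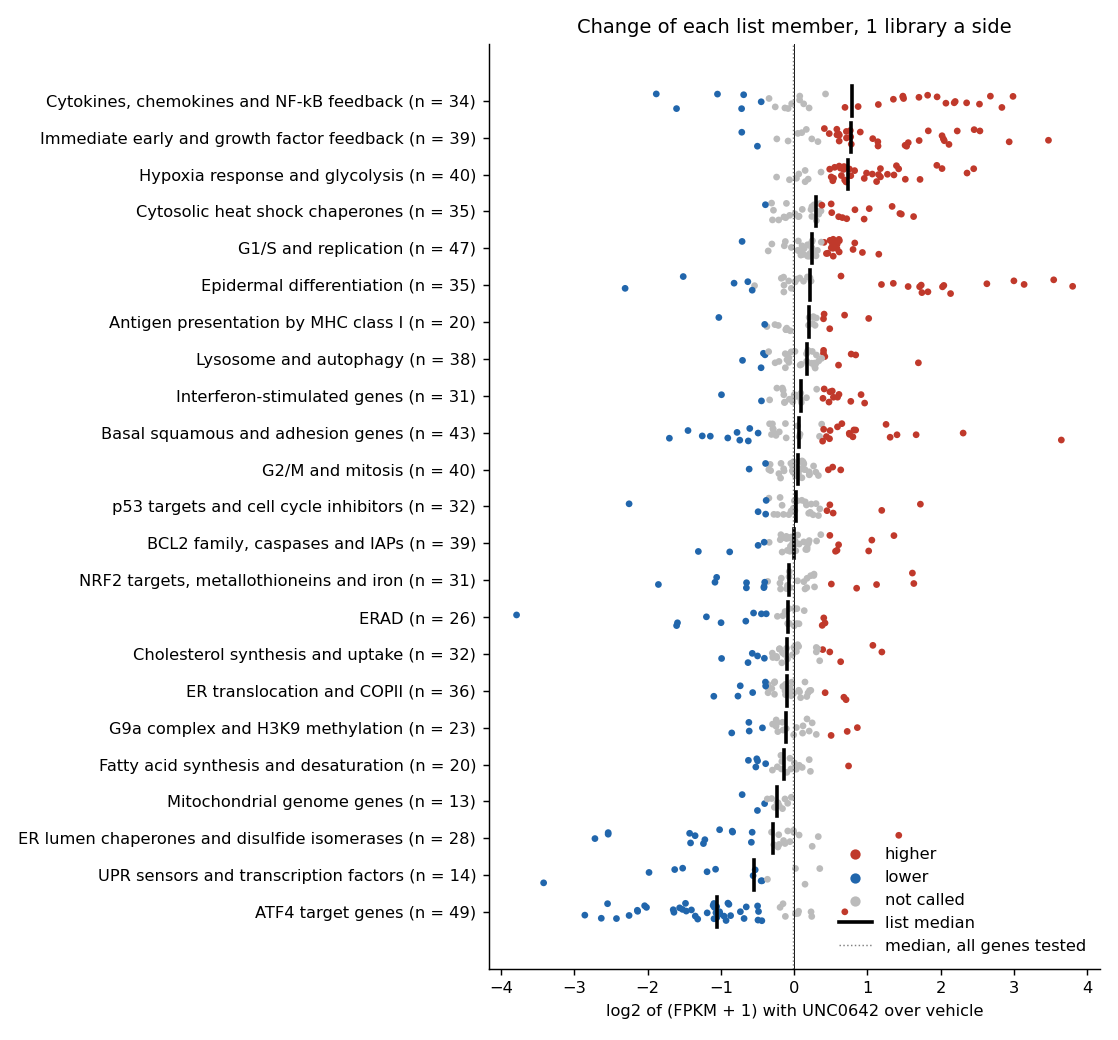
Change of each tested list member on the log2 scale of (FPKM + 1), UNC0642 over vehicle, with 1 row a list, red for genes that rose, blue for genes that fell, gray for genes not called, a black bar at the list median and a dotted line at the median of all genes tested. ATF4 targets have the lowest median (-1.06), and cytokines, immediate early genes and hypoxia genes have medians of 0.79, 0.77 and 0.73.

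Cytosolic heat shock chaperones moved the other way. Of 35 tested, 13 rose (against 15.8% of all genes) and 1 fell, with a median of 0.30. HSPA8, the constitutive Hsp70, had 99.4 FPKM with vehicle and 253 with UNC0642, from 7546 and 21937 reads. DNAJA1, its Hsp40 partner, had 37.3 and 77.1 FPKM, HSP90AA1 had 291 and 461, and HSPH1, a nucleotide exchange factor, had 13.1 and 26.3. The inducible pair HSPA1A and HSPA1B, with 7.35 and 24.9 and with 15.3 and 43.9 FPKM, is nearly identical in sequence and its reads may be split between the copies. HSP90AB1 had 775 and 980 FPKM and fell short of the fold of 1.3. The HSE was rare, and among the 25 tested genes with one, 3 rose (12%) and 7 fell (28%), HSPA8 being the single member of the list that rose with one.

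Genes of the hypoxia response and of glycolysis rose almost throughout. Of 40 tested, 32 rose (against 15.8% of all genes), 15 of them by at least 2 times, 0 fell, and the median was 0.73. Among the HIF targets, CA9, the carbonic anhydrase used as a hypoxia marker, had 12.1 FPKM with vehicle and 66.2 with UNC0642 (316 and 1979 reads), and CA12 had 1.36 and 11.9. NDRG1 had 45.4 and 178 FPKM, BNIP3, a mitophagy receptor, 23.8 and 62.9, and EGLN3, a HIF prolyl hydroxylase, 13.6 and 34.3. Glycolytic enzymes from the entry to the end of the pathway were among those that rose. HK2 rose from 35.9 to 96.3 FPKM, PFKFB4 from 2.68 to 11.1, PGK1 from 121 to 276, ENO2 from 5.62 to 25.9 and LDHA from 91.7 to 265. HIF1A had 123 and 128 FPKM and VEGFA 26.0 and 24.8, and neither was called. GAPDH, often used as a reference gene, had 955 and 1232 FPKM and fell short of the fold of 1.3. The HRE stood in 7 of 38 promoters of the list (18.4%), whatever their change, against 2.85% of all promoters. Over all promoters with an HRE, 44 of 278 tested genes rose (15.8%), the same share as among all genes.

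Immediate early genes and feedback genes of growth factor signaling also rose, with 30 of 39 tested higher, against 15.8% of all genes, and 2 lower, and a median of 0.77. Of these 39, 4 passed the filter only through UNC0642, and among the 35 at or above 1 FPKM in both libraries 26 rose and 2 fell. FOSL1, an AP-1 subunit (chromosome 11, 65892049 to 65900573), had 6.19 FPKM with vehicle and 78.9 with UNC0642 (183 and 2663 reads, ratio 12.7, interval 11.0 to 14.9). FOS had 6.11 and 29.8 FPKM and JUN 21.9 and 92.0. The ERK phosphatases rose with them, DUSP6 from 1.47 to 18.0 FPKM, DUSP4 from 5.08 to 27.5, DUSP5 by 2.04 to 52.6 and DUSP1 from 4.52 to 31.1. Among ligands of the EGF receptor, TGFA rose from 3.87 to 19.2 FPKM and HBEGF from 2.96 to 13.1, while AREG fell from 16.6 to 11.4. MYC had 137 and 153 FPKM and was not called.

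Cytokines and chemokines diverged in 2 directions. Of 34 tested members 18 rose and 6 fell, against 15.8% and 14% of all genes, with a median of 0.79. However, 7 had passed only through UNC0642 and 2 only through vehicle. Among the 25 with at least 1 FPKM in both, 12 rose and 5 fell and the median was 0.21. Several members of the IL-1 family rose, with IL1B by 2.99 to 70.5 FPKM (388 and 3904 reads), IL1A from 31.0 to 184 and IL36G from 1.06 to 12.2. The receptor antagonist IL1RN rose from 4.16 to 20.7 FPKM, while IL18, of the same family, had 20.6 and 21.8 and was not called. CXCL8, a neutrophil chemokine, rose from 29.1 to 153 FPKM, and CCL20 from 36.1 to 120.1. Its relatives did not follow, since CXCL2 fell from 16.1 to 4.62 and CXCL3 from 5.47 to 0.756 FPKM, and CXCL1 had 88.9 and 74.2 and was not called. TNFAIP3, a feedback inhibitor of NF-kB, rose from 27.9 to 101 FPKM, whereas NFKBIA, another, had 93.6 and 103 and was not called. CSF2 had 0 reads with vehicle and 50 with UNC0642.

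The 15 largest increases among protein-coding genes included several keratins. KRT34, a hair keratin (chromosome 17, 41377650 to 41382403), had 0.182 FPKM with vehicle and 21.0 with UNC0642, from 5 and 659 reads (ratio 115, interval 49.2 to 357). KRT75, a companion-layer keratin, had 4.73 and 64.1 FPKM, and KRT33A 0.298 and 11.99 with 6 reads with vehicle. S100A9, a calprotectin subunit, had 3.98 and 68.6 FPKM (36 and 708 reads), while its partner S100A8 had only 0.190 and 1.72. RNASE7, an antimicrobial ribonuclease of skin, had 5.07 and 75.1 FPKM. The receptors TREM1 and SIRPB1, better known from myeloid cells, had 0.339 and 11.5 and 0.451 and 13.0 FPKM. No listed leukocyte marker, such as PTPRC or CD14, reached 1 FPKM in either library.

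Epidermal differentiation genes did not move as 1 group. Of 67 genes listed, 63 had values and 35 were tested, and 16 rose and 5 fell, against 15.8% and 14% of all genes. Of those tested, 8 had passed only through UNC0642 and 2 only through vehicle, and the other 28 with values stayed below 1 FPKM in both. Of the 25 that reached 1 FPKM in both, 8 rose, 4 fell and the median was 0.08. IVL, a cornified envelope protein, had 0.297 and 10.4 FPKM (10 and 402 reads), and SPRR1A had 1 and 43 reads. The serpins SERPINB4 and SERPINB3 rose from 5.20 to 71.4 and from 9.81 to 66.0 FPKM. Small proline-rich, S100, SERPINB3 and SERPINB4 genes have close copies whose reads may be divided unequally. Against these, KRT13 fell from 23.3 to 7.52 FPKM and KRT4 as above, both keratins of differentiating esophagus, and TGM1, a transglutaminase, had 6.17 and 5.36 FPKM and was not called. The AP-1 site stood in 18 of 52 promoters of the listed genes (34.6%), whatever their level or change, IVL and SPRR1A among them, against 6.60% of all promoters. Of the 8 members that rose and had at least 1 FPKM in both libraries, 6 matched a promoter and 1, that of S100A2, held the site. Over all promoters with the site, 88 of 372 tested genes rose (23.7%).

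Of 43 tested basal keratin and adhesion genes 18 rose and 10 fell, against 15.8% and 14% of all genes. Keratins of activated epithelium rose, KRT6A from 0.676 to 20.03 FPKM (31 and 1049 reads), KRT6B from 2.74 to 17.5 and KRT17 from 324 to 806. Reads of KRT6A and KRT6B, and of KRT16 and its pseudogene KRT16P1, may be exchanged between copies. The basal keratins KRT15 and KRT5 fell from 151 to 54.6 and from 427 to 303 FPKM, while KRT14, the partner of KRT5, rose from 1.93 to 8.31. SOX2, a squamous lineage factor, fell from 18.3 to 4.94 FPKM, and DSG3, a desmosomal cadherin, from 28.6 to 11.4. Some laminin chains and integrin subunits rose, LAMA3 from 11.2 to 20.2 FPKM, LAMB3 from 92.5 to 126, ITGA3 from 32.3 to 87.2 and ITGA6 from 56.6 to 89.6. ITGB4 had 57.7 and 73.7 FPKM and was not called.

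Of 47 tested G1/S and replication genes 20 rose (against 15.8% of all genes) and 1 fell, and the median was 0.25. CCNE1, a G1/S cyclin, rose by 1.16, to 3.46 FPKM, FEN1, a flap endonuclease, from 16.2 to 31.8, and PCNA from 60.2 to 108. Of these 47, only CCNE1 passed a fold of 2. In G2/M and mitosis, 3 of 40 rose and 2 fell, against 15.8% and 14% of all genes. Among p53 targets and cell cycle inhibitors, 5 of 32 rose and 4 fell, close to the shares among all genes. CDKN1A, the inhibitor p21, rose from 10.8 to 38.0 FPKM and SFN, which encodes 14-3-3 sigma, from 179 to 412. In the BCL2 and caspase list 7 of 39 rose and 4 fell, also near those shares. TNFSF10, the ligand TRAIL, fell from 6.97 to 2.22 FPKM.

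Metabolic and immune lists followed, beside 15.8% of all genes that rose and 14% that fell. Cholesterol genes had 5 of 32 higher and 5 lower, with INSIG2 rising from 6.61 to 16.5 FPKM. Fatty acid genes had 1 of 20 higher and 5 lower, SREBF1 falling from 51.4 to 35.8 FPKM. In the NRF2, metallothionein and iron list 5 of 31 rose and 8 fell. GCLC, the catalytic subunit of glutathione synthesis, fell from 77.9 to 20.9 FPKM while its modifier GCLM rose from 22.2 to 32.0, and MT2A, a metallothionein, rose from 124 to 386. CTSL, a lysosomal protease, rose from 27.0 to 89.7 FPKM among 38 lysosome and autophagy genes, of which 7 rose and 4 fell. Of 31 interferon-stimulated genes 11 rose (against 15.8% of all genes) and 2 fell, none by 2 times, with ISG15 at 3.12 and 6.76 FPKM. Of 20 MHC class I genes 5 rose and 2 fell, led by MICB, an NK cell ligand, from 3.88 to 8.89 FPKM and by HLA-B from 15.9 to 26.3. HLA genes resemble each other and their reads may be misassigned.

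Germline genes are often silenced by H3K9 and DNA methylation. Of 41 listed cancer-testis and germline genes 20 are in the table, 3 passed 1 FPKM, and 0 were called. MAGEA3 had 45.9 and 49.7 FPKM, MAGEA9B 3.52 and 3.70, and MAGEA6 1.27 and 1.74, all with close copies. Of 13 protein genes of the mitochondrial genome 0 rose and 3 fell, against 15.8% and 14% of all genes, with a median of -0.23.

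Outside protein-coding genes, the largest increase was LINC01559, a lincRNA that had 0.775 FPKM with vehicle and 17.6 with UNC0642 (48 and 1248 reads). MIG7 had 2.33 and 29.5 FPKM, KRT16P1 0.484 and 11.8, and AC111149.2 0.818 and 10.4. AC097451.1 had 0 reads with vehicle and 65 with UNC0642, at least 19.0-fold higher than the 3 reads a count of 0 allows in the vehicle library. The largest decreases were the pseudogenes AC245100.3, from 61.2 to 8.83 FPKM, and MSTO2P, from 16.0 to 2.94, and AL157871.3 with 23 and 1 reads. AL033397.2, annotated as antisense, fell from 9.34 to 2.45 FPKM, but the strand setting of the counting is not given in the sources used here. AC009093.4 fell from 6.83 to 1.69 FPKM. Of 477 lincRNA genes tested, 119 rose (24.9%) and 104 fell (21.8%), against 15.8% and 14% of all genes.

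The values were next set beside those of the other inhibitor libraries. Summed over the 28 ER lumen chaperones, FPKM was 3765 with vehicle, 1863 with UNC0642, 2079.9 with SP2509 and 2394 with both. HSPA5 alone held 1462, 251, 511 and 627 FPKM of these sums, which therefore do not describe a typical member. Over the 49 ATF4 targets the sum was 3112, 1620.4, 1482 and 2284. Over the 40 hypoxia and glycolysis genes it was 3742, 5820 with UNC0642, 6027 with SP2509 and 5424 with both, and over the 39 immediate early and feedback genes 589, 1361, 2769 and 2140.0. By these sums, the vehicle library lay on one side and the treated ones on the other for each of the 4 lists. Single members did not all follow with both inhibitors. CHAC1 had 15.5 FPKM with vehicle and 28.4 with both, and was called higher. FGF21 had 9.64 and 11.4 FPKM and DNAJB9 23.6 and 19.96, and neither was called. With both inhibitors the median change was -0.49 for the ATF4 targets, against -1.06 with UNC0642. For the ER lumen chaperones it was -0.27, against -0.29. The sums of the heat shock chaperones were different, with 2378 FPKM for vehicle, 3142 for UNC0642, 2034 for SP2509 and 3111 for both. HSPA8 had 66.8 FPKM with SP2509 and 262 with both inhibitors, beside 99.4 with vehicle and 253 with UNC0642. S100A9 had 6.04 FPKM with SP2509 and SERPINB4 6.28, both near vehicle and far below UNC0642.

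The uninduced shRNA lines give a second view of Kyse510 cells without inhibitor, in a table that was normalized separately. These cells carry a hairpin and went through puromycin selection, so they are not replicates of the vehicle culture. The ATF4 targets summed to 3045 FPKM in the uninduced shG9a line and 2873 in the uninduced shLSD1 line, and the ER lumen chaperones to 4864 and 4148, all above the UNC0642 library like the vehicle library. The hypoxia genes summed to 6953 and 7396 FPKM and the immediate early genes to 1455 and 1395. For these last 2 lists the uninduced lines were nearer to the UNC0642 library, or beyond it, than to the vehicle library. The share of the vehicle culture in those increases was not tested. The sums of the 2 tables are not of like content for every member. In the hypoxia list, ALDOA had 236 FPKM with vehicle but 2.78 in the uninduced shG9a line, and LDHB had 288 and 0.243.

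**Figure D4:**
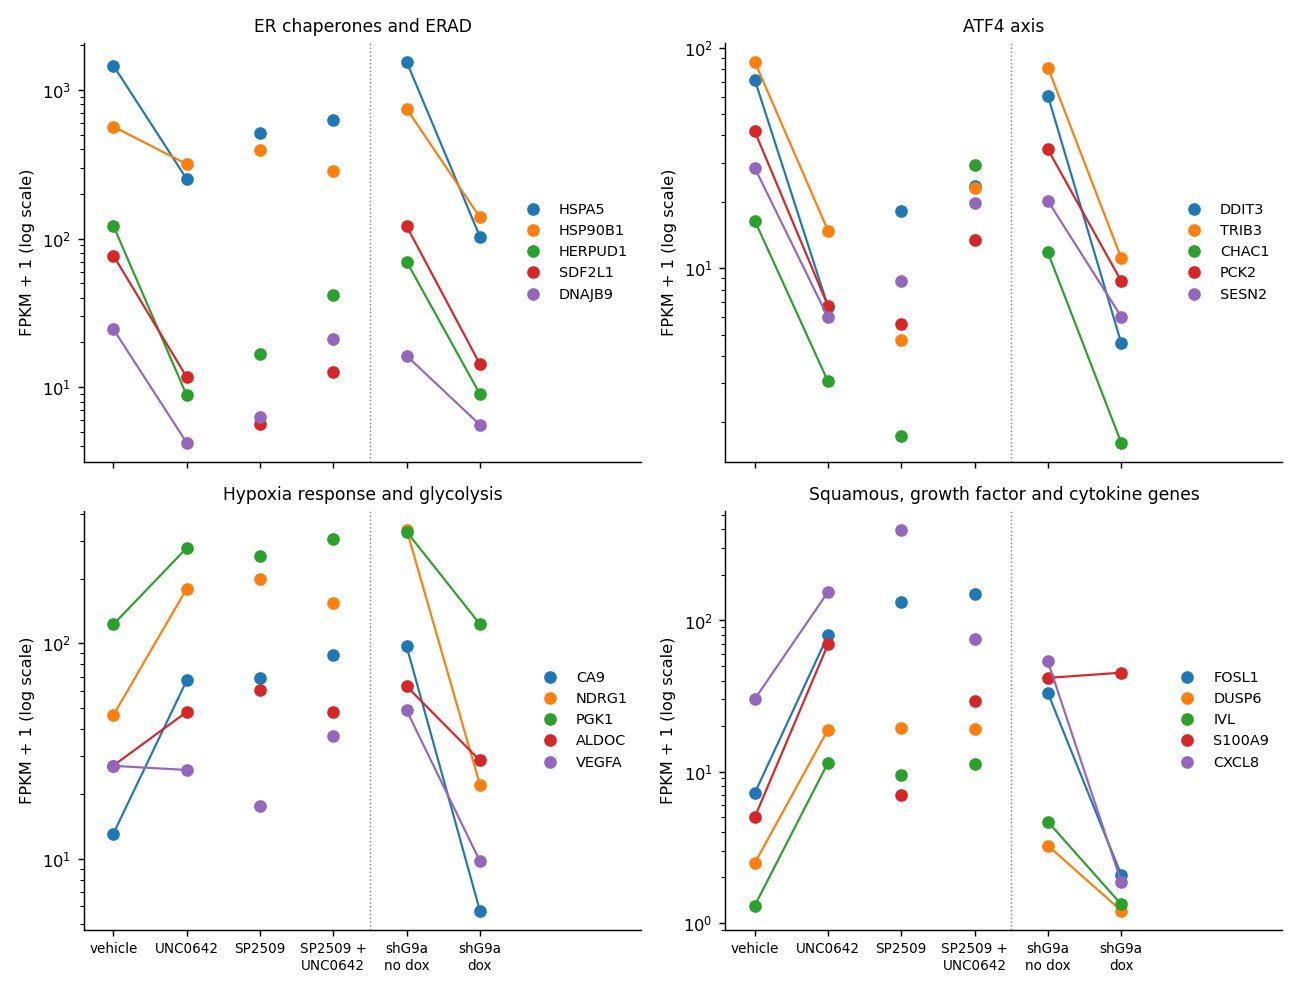
FPKM + 1 on a log y axis for 20 genes in 6 libraries, with lines joining vehicle to UNC0642 and the uninduced to the induced shG9a line, and a dotted line between the 2 separately normalized tables. ER and ATF4 genes descend along both lines, whereas hypoxia genes such as CA9 climb from 12.1 to 66.2 FPKM with UNC0642 and descend from 95.9 to 4.74 in the shG9a line.

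The shG9a line was set beside these values, with its own control library. No library here has doxycycline with a control hairpin. An effect of doxycycline or of induction therefore cannot be told apart from loss of the enzyme. In the shG9a line 3922 of 13080 tested genes rose with doxycycline (30%) and 2065 fell (15.8%). Of 11906 genes tested in both comparisons, 1776 rose with UNC0642 and 3531 with the hairpin, and 476 were shared, which was 26.8% of the former and 13.5% of the latter. Lower in both were 417 genes, 24.7% of the 1690 that fell with UNC0642 and 21.7% of the 1922 that fell with the hairpin. Another 650 genes rose with UNC0642 and fell with the hairpin, 36.6% of those that rose with UNC0642, and 386 did the reverse. At a fold of at least 2, 163 of 386 genes that rose with UNC0642 (42.2%) fell with the hairpin and 23 (5.96%) rose, while 81 of 251 that fell (32.3%) fell with it and 21 (8.37%) rose. With the hairpin at this fold, 548 of its 13080 genes rose (4.19%) and 693 fell (5.3%), and of the 11906 tested in both 446 rose (3.75%) and 654 fell (5.49%). Across these genes the changes had a Pearson r of -0.11 and a Spearman rho of -0.01, given as a description since genes of 1 library are not independent.

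The lists divided between the 2 comparisons. Over all genes tested in both, 3.998% rose in both, 3.502% fell in both and 5.46% rose with UNC0642 and fell with the hairpin. ATF4 targets fell in both, with 35 members lower in each, and UPR sensors and ER lumen chaperones had 9 and 12 members lower in both. HSPA5 had 1551 FPKM without doxycycline and 102 with it, DDIT3 59.5 and 3.58, and HERPUD1 69.1 and 7.99. Heat shock chaperones rose in both for 12 members, and G1/S genes for 18. DNAJA1 had 26.1 and 91.5 FPKM in the shG9a line, and PCNA 28.3 and 76.3. The hypoxia list moved in opposite directions, with 33 of 39 members lower with the hairpin and 30 of them higher with UNC0642. Immediate early genes did so for 24 members, FOSL1 having 32.1 and 1.07 FPKM in the shG9a line and FOS 83.4 and 2.60. IL1A had 39.8 and 0.0272 FPKM there, and IL1B 17.0 and 0.224, against their rise with UNC0642. In the shLSD1 line, the ER lumen chaperones summed to 4148 FPKM without and 1702 with doxycycline, and the ATF4 targets to 2873 and 2535. The hypoxia genes summed to 7396 and 3144 FPKM there, the immediate early genes to 1395 and 725, and the heat shock chaperones to 1843 and 1947. Whether doxycycline or the hairpins gave these changes was not tested.

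**Figure D5:**
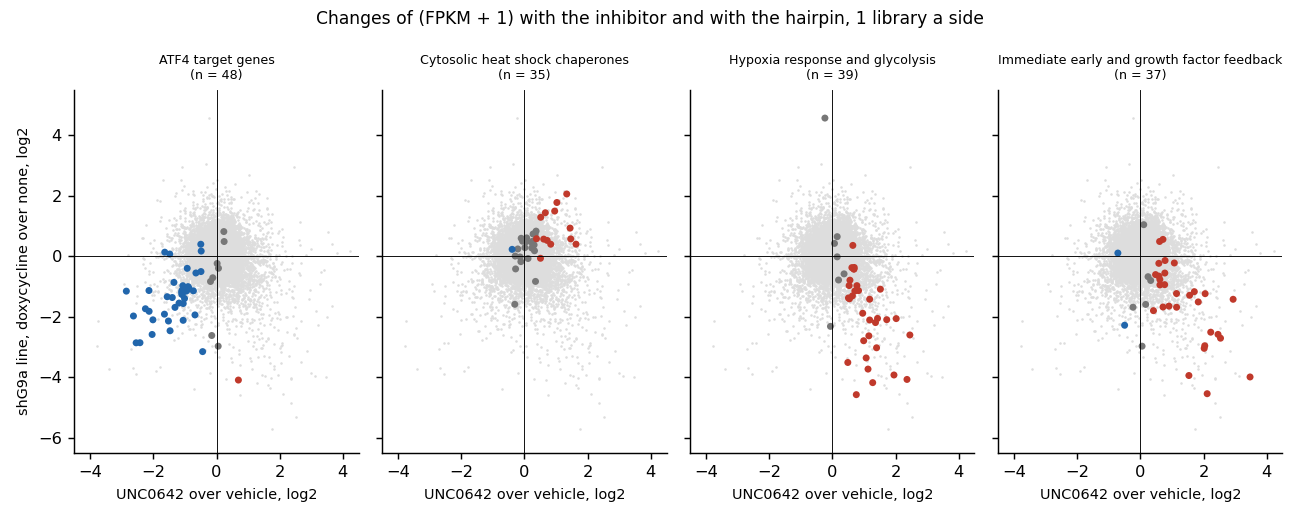
Change on the log2 scale of (FPKM + 1) with UNC0642 (x axis) and with doxycycline in the shG9a line (y axis), 1 library a side, for members of 4 lists over all genes in gray, with red and blue for genes that rose or fell with UNC0642. Most of the 48 ATF4 targets lie at lower left and heat shock genes toward the upper right, whereas hypoxia and immediate early genes lie at lower right.

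Some members of the lists that fell with UNC0642 behaved otherwise in the shG9a line. PSPH had 8.19 and 9.03 FPKM without and with doxycycline and CTH, which makes cysteine, 2.10 and 2.25. SOX2 rose there from 5.99 to 38.8 FPKM while it fell with UNC0642, and WNT10A and ADH1C, among the largest decreases with UNC0642, had 16.2 and 24.8 and 9.59 and 15.1 FPKM. ID4 had 23.5 and 23.8 FPKM in the shG9a line, against 28.5 and 3.22 with vehicle and UNC0642. Among the increases, MT2A rose in both, to 207 FPKM from 96.3 with the hairpin, as did SFN, to 611 from 206. RNASE7 and KRT75 rose with UNC0642 and fell with the hairpin, from 35.7 to 10.7 and from 6.32 to 0.795 FPKM.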

How the data were processed

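RNA-seq of Kyse510 cells was analyzed in 8 libraries, 1 per condition, of which the vehicle and UNC0642 libraries form the main comparison. Per the labels and the methods, the authors filtered paired-end reads of 150 bases, mapped them to GRCh38.87 (build GRCh38, annotation 87, as the submitters' processing notes give it), and deposited FPKM values in 2 tables, 1 for inhibitors and 1 for hairpins. The aligner, counting tool and strand setting are not given in the sources used here. Further columns of the tables hold annotation and were used for gene type and position only.

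Read numbers were recovered from FPKM. Values of genes with 1 exon fall on steps that give the library total, and a length making every value a whole number of reads was then sought for each other gene, which failed for 1 gene in each table, and the reads summed to 99.6% to 99.8% of the totals. Fold changes used FPKM + 1. A call needed FPKM of at least 1 in either library, a fold of at least 1.3 and a two-sided exact binomial p below 0.05, unadjusted. The procedure was tested on simulated data. Intervals are exact at 95% and cover counting error only.

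Members of 26 gene lists were counted with the same call and given with their median. The lists, elements and comparisons were chosen with earlier results of these data known. Named are EHMT2 and EHMT1, the 15 largest increases and decreases among protein-coding genes with at least 5 FPKM in either library, the 5 largest in each direction among other types with a length of at least 200 bases, up to 4 per direction in each list with members whose role is described, and the 10 genes with the highest FPKM. A few genes that this rule names are not reported here. The promoter of the first start listed per gene was searched. Python 3.11.15, numpy 2.4.6, scipy 1.17.1, pandas 2.3.3 and matplotlib 3.10.9 were used. Alternatives were 11 settings fixed beforehand and 1 added after the data were seen.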

Additional observations from a re-analysis of the deposited data

How the results depend on the processing

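No paired analysis was possible because each condition has 1 library, and for the same reason no replicate could be left out. The counts moved by over 1.5 times under 2 settings. With at least 5 FPKM in either library, 1251 genes rose and 1073 fell, and with a fold of at least 2, 511 rose and 294 fell. Of the list medians, that of ER lumen chaperones was -0.57 and that of interferon-stimulated genes 0.28 at 5 FPKM, that of immediate early genes 1.17 with a pseudocount of 0.1 and 1.11 at 5 FPKM, and that of cytokines 1.09 with a pseudocount of 0.1. Of the list medians, 1 changed sign, that of the BCL2 and caspase list, from -0.0051 to 0.024 at 5 FPKM, both near 0. The remaining 118 values stayed within the limits set, among them the smallest gene length that gives whole reads (2083 higher and 1844 lower), an alternative chosen after seeing the data. TMM scaling shifted the ratios by 0.0048 on the log2 scale. The limit to 1 FPKM in both libraries was an alternative for the counts of genes but not for the list medians. Under it the median was 0.21 for cytokines (0.79 in the main setting), 0.08 for epidermal differentiation (0.22) and -0.25 for squamous markers (-0.01). Genes under 1 FPKM rest on few reads at this depth.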
